A study of Mus musculus with 18 samples.

Results

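The astrocyte genes described here are 32 genes that are used as astrocyte markers or are strongly expressed by astrocytes of the mouse brain. They were chosen with earlier results of these data known, given as a fixed list of symbols and matched to the Ensembl identifiers of the count table. Among its 22063 identifiers 32 of 32 were found. Of these, 19 mark mainly astrocytes, and 13 (S100b, Glul, Atp1b2, Slc4a4, Clu, Apoe, Ttyh1, Htra1, Bcan, Plpp3, Mt3, Sparcl1 and Vim) are also expressed by other cells of the brain. RNA was sequenced from the hippocampus of 18 mouse samples in 4 groups. Control (n = 3) is an untreated blank, S-V (n = 5) turned a single way with the eyes covered, D+V (n = 5) turned both ways with sight free, and D-V (n = 5) turned both ways with the eyes covered, a condition the labels name the Coriolis illusion. The tissue was collected directly after multi-axis rotation meant to produce spatial disorientation through the vestibular organ, per the series design text. Strain, sex, age, the length of rotation and any handling of the Control animals were not stated, and neither was whether each sample is a separate animal. The p-values below thus weigh differences between group means against the spread between these samples, which may not be the spread between animals.

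Astrocytes take up the potassium and glutamate that neurons release, turn glutamate into glutamine, and pass water, ions and metabolites along a network of cells joined by gap junctions. Their end feet wrap the blood vessels and carry a dense lattice of the water channel Aqp4. They also store glycogen, supply lipids and apolipoproteins, and respond to injury by raising the intermediate filaments Gfap and Vim.

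Libraries held 15.03 to 25.31 M estimated counts in total. Markers of hippocampal subfields, looked up as a check of the tissue label after the other values were known, were present in every library, with Prox1 of the dentate gyrus at 79.1 to 153 CPM and Wfs1 of field CA1 at 89.2 to 199 CPM (CPM are counts scaled to library size, here with TMM factors, which even out the make-up of libraries). Libraries differed in tissue from the ventricle wall. The summed level of 12 choroid plexus markers ran from 245.7 to 1532 CPM in Control, 330.2 to 5707 in S-V, 251.6 to 12337 in D+V and 272 to 14148 in D-V. Of these 12 markers, Aqp1 was at 0 in 1 library and the other 11 were at 0 in none. The 6 libraries richest in them were D-V 3, D+V 2, D-V 4, S-V 2, S-V 4 and D+V 5, and the results below are also given without these 6 where this changes them.

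Compared per kilobase of transcript, the highest levels among the 32 genes belonged to Apoe (1483 CPM per kb), the main lipid carrier of the brain, followed by the chaperone Clu (609), the matrix protein Sparcl1 (564), the glutamine synthetase Glul (549) and the glycolytic enzyme Aldoc (348). The lowest belonged to Sox9 (7.06), a transcription factor of glial fate, and Cbs (5.01), an enzyme of sulphur amino acid metabolism. Apoe stood at percentile 99.9 of all genes tested and Cbs at percentile 43.4, so the list covers abundant and ordinary transcripts. Gfap, at 183 CPM per kb, ranked 8 and the glutamate transporter Slc1a2, at 189.99 CPM per kb, ranked 7 among the 32. The transcript lengths were those of the longest coding transcript in GENCODE M21.

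The question put to these genes was whether their transcripts differed between rotated and control hippocampus, and between rotation with and without vision. All 32 passed the filter on low counts and were tested among 14763 genes with edgeR's quasi-likelihood F test in a fit of 4 group means, with calls made at an adjusted p (Benjamini-Hochberg) below 0.05. Aqp4 rose in D+V against Control and was the only 1 of the 32 called in any of 7 comparisons. In D+V against Control 0.908% of all genes tested were called (134 genes, 0.732% higher and 0.176% lower), against 1 of 32 here. In each of the other 6 comparisons 0% of all genes and 0 of the 32 were called. In D+V against Control DESeq2 called 2 of the 32, among 6.45% of the genes to which it gave an adjusted p, and limma voom called 6, among 12.7% of all genes. Besides Aqp4, voom called Slc4a4, Gja1 and Slc1a2 higher. It called Atp1b2 (log2 -0.23, voom adjusted p = 0.0211) and Vim (log2 -0.50, voom adjusted p = 0.0383) lower. For D-V against D+V DESeq2 and voom called 2 and 6 of the 32, among 2% and 5.55%, and for D+V against S-V 0 and 4, among 1.27% and 13.2%. Both called 0 of the 32 in the other 4 comparisons. In bulk tissue, more or fewer astrocytes and more or less RNA per astrocyte cannot be told apart.

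**Figure D1:**
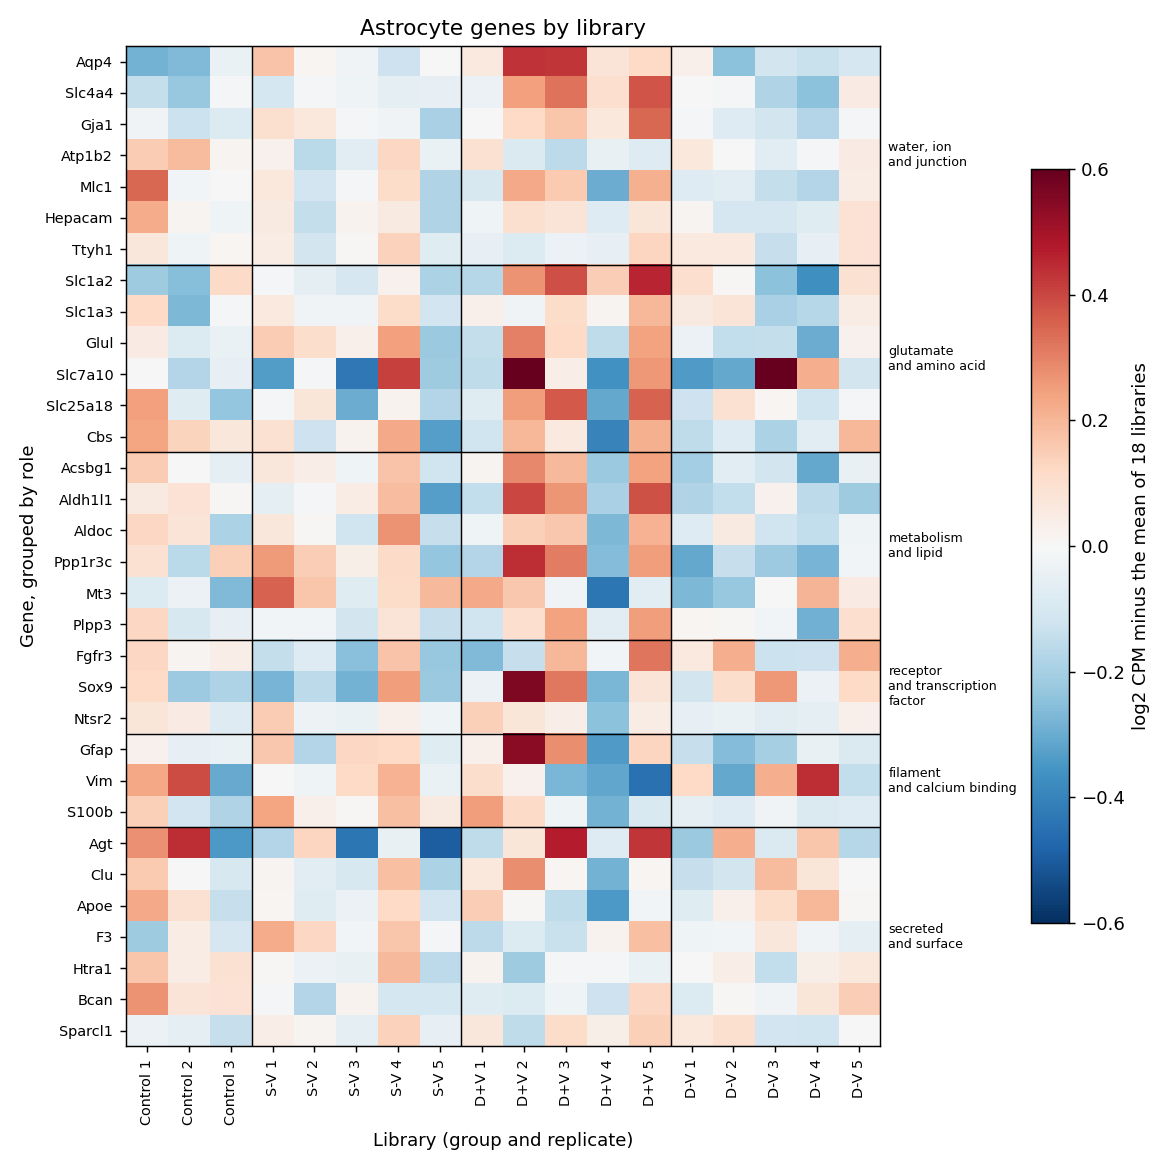
Heat map of the 32 astrocyte genes (rows, grouped by role) in 18 libraries (columns, grouped by condition). Colour is log2 CPM minus the gene's mean over the 18 libraries, with the scale ending at 0.6 in each direction so that larger values have the end colour. S-V 4, D+V 5, Control 1, D+V 2 and D+V 3 are mostly red (23 to 28 of 32 genes above their median), D+V 4 and S-V 5 mostly blue.

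Promoter sequences are shown for Gja1 and Slc1a2, whose means were higher in D+V than in Control without passing the test, and short matches for Gfap and Slc1a3. RefSeq windows on GRCm38.p6, running from 250 bases before to 50 bases after a start site, were matched by symbol for 27 of the 32 genes (32 windows, as some genes have several starts). Clu, Aqp4, Sparcl1, Atp1b2 and Sox9 had no match. The 250 bases before the start of Gja1, which encodes the gap junction protein connexin 43, lie at chr10:56377050-56377299 on the plus strand and are 50% GC. Those before the start matched for Slc1a2 lie at chr2:102706188-102706437 on the plus strand and are 44.8% GC. The reverse complement of the NFI word TTGGC is in capitals. NFI factors are known regulators of astrocyte genes.
Gja1: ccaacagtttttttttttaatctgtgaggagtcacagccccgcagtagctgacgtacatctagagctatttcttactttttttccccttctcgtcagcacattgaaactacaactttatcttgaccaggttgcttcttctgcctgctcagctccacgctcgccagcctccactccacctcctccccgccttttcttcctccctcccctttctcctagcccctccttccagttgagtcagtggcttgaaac
Slc1a2: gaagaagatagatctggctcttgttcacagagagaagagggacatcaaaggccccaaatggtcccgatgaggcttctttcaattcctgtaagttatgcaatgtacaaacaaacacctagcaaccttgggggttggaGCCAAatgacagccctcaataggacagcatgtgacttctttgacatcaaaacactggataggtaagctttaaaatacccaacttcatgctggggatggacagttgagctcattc

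The NFI word in the sequence printed for Slc1a2 lies 114 to 110 bases before the matched start, and it is a common word. That start was the only start matched for Slc1a2, and whether it is the main start of the gene was not checked. TTGGC on either strand was found in 17 of 32 windows of the astrocyte genes (53.1%) and in 46.7% of 32851 windows of all genes. The full NFI palindrome, in which TTGGC and GCCAA stand 5 bases apart, was found in 0 of 32 windows and in 0.0365% of all. Both SOX words, ACAATGG and AACAAT, which can overlap each other, were in 0 of 32 windows and in 3.66% and 10.7% of all windows. The STAT word TTCNNNGAA was in 6 of 32 windows (18.75%; Acsbg1, Agt, Aldoc, Gfap, Ntsr2 and Slc1a3) and in 8.30% of all. STAT3 is known for its part in astrocyte maturation and reactivity. The matches of Gfap, at chr11:102897184-102897212 on the minus strand and beginning 2 bases before the start, and of Slc1a3, at chr15:8710885-8710913 on the minus strand and beginning 96 bases before it, are given with 10 bases on each side and the word in capitals.
Gfap: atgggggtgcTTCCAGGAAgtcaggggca
Slc1a3: ttcaggatccTTCCAAGAAatttcagtta

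These matches describe the letters in the windows and say nothing of whether a factor binds there. The windows of the astrocyte genes had a median GC content of 56.2%, against 52.7% for all windows.

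Among the 7 genes of water, ion and junction transport, Aqp4 was called and the next 2 in rank, Slc4a4 and Gja1, stood in the same direction without passing the test. Aqp4 was at 116, 117 and 137 CPM in Control 1 to 3 and at 159, 142, 139, 129 and 141 in S-V 1 to 5. Its levels were 147, 191, 189.7, 149 and 153 CPM in D+V 1 to 5 and 144, 119, 131, 129 and 131 in D-V 1 to 5. Each of the 5 D+V libraries lay above each of the 3 Control libraries and above each of the 5 D-V libraries. The mean was 123 ± 12 CPM (SD, n = 3) in Control and 166 ± 22.3 (SD, n = 5) in D+V, a log2 difference of 0.43 (SE 0.10, 1.34-fold, edgeR adjusted p = 0.0422). This call rested on several libraries together: leaving out Control 1 or Control 2, or any of D+V 2 to D+V 5, gave adjusted p-values from 0.0554 to 0.208, with log2 differences from 0.37 to 0.51 over the 8 fits that each left out a library. With trends on transcript GC content and length removed the difference was 0.21 (adjusted p = 0.668), and without the 6 libraries richest in choroid plexus markers it was 0.40 (adjusted p = 0.172).

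Slc4a4 encodes a sodium bicarbonate cotransporter of astrocytes that some other epithelial and glial cells also use. In Control 1 to 3 Slc4a4 stood at 141, 133 and 155 CPM, and in D+V 1 to 5 at 152, 185, 196, 167 and 203. It stood at 145, 156, 153, 150.0 and 151 CPM in S-V 1 to 5 and at 156, 155, 138, 131 and 162 in D-V 1 to 5. D+V 1 lay within the Control range and the other 4 D+V libraries lay above it. In D+V against Control the log2 difference was 0.34 (SE 0.09, edgeR adjusted p = 0.0642).

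Gja1, whose promoter is printed above, couples astrocytes into a network. For Gja1, Control 1 to 3 gave 196, 182 and 188 CPM and S-V 1 to 5 gave 213, 208, 198, 196 and 174. D+V 1 to 5 gave 199, 216, 223, 208 and 253 CPM and D-V 1 to 5 gave 198, 189, 184, 176 and 198. The D+V libraries lay above all Control and all D-V libraries, by a narrow margin at D+V 1, and D+V 5 was the highest of the 18. The log2 difference from Control was 0.22 (SE 0.08, adjusted p = 0.138). Atp1b2, a subunit of the sodium potassium pump, went the other way, with 415 to 493 CPM in D+V and 468 to 528 in Control and a log2 difference of -0.17 (SE 0.07, adjusted p = 0.186). The remaining genes of this role spanned 151 to 235 CPM for Mlc1 and 88.4 to 117 for Hepacam, both end-foot membrane proteins, and 395 to 477 for the chloride channel Ttyh1, with overlapping groups.

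The 6 genes of glutamate and amino acid handling were led by Slc1a2 (GLT-1), which carries most glutamate uptake in the forebrain. Slc1a2 was at 1875, 1826 and 2356 CPM in Control 1 to 3 and at 2168, 2099, 2033, 2213 and 1911 in S-V 1 to 5. Its levels were 1933, 2627, 2842, 2415 and 2987 CPM in D+V 1 to 5 and 2332, 2189.8, 1834, 1689 and 2322 in D-V 1 to 5. D+V 1 lay among the Control libraries, and the other 4 D+V libraries lay above the highest of them. The log2 difference in D+V against Control was 0.34 (SE 0.13, adjusted p = 0.171), which did not pass the test.

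The second astrocyte glutamate transporter, Slc1a3 (GLAST), showed less separation. In Control 1 to 3 Slc1a3 stood at 637, 487 and 583 CPM, and in D+V 1 to 5 at 600.4, 579, 635, 593 and 675. It stood at 611, 578, 579, 633 and 543 CPM in S-V 1 to 5 and at 608, 619, 514, 521 and 605 in D-V 1 to 5. Its groups overlapped, and the log2 difference in D+V against Control was 0.12 (SE 0.09, adjusted p = 0.509). Glul makes glutamine from the glutamate taken up. For Glul, Control 1 to 3 gave 1573, 1438 and 1481 CPM and S-V 1 to 5 gave 1689.8, 1635, 1553, 1806 and 1303. D+V 1 to 5 gave 1377, 1878, 1652, 1370.1 and 1799 CPM and D-V 1 to 5 gave 1486, 1375, 1378, 1238 and 1552. The D+V libraries split into 3 high (D+V 2, 3 and 5) and 2 low (D+V 1 and 4), with a log2 difference from Control of 0.11 (SE 0.11, adjusted p = 0.644). The serine transporter Slc7a10 varied most among the 32 in D+V and in D-V, from 22.3 to 47.0 CPM in D+V and 22.7 to 51.4 in D-V. Slc25a18, a mitochondrial glutamate carrier, ranged from 49.7 to 79.2 CPM and Cbs from 23.4 to 36.5 over the 18 libraries.

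Among the 6 genes of metabolism and lipid handling none was called. Acsbg1 activates long fatty acids for metabolism. Acsbg1 was at 178, 160.2 and 154 CPM in Control 1 to 3 and at 168, 165, 157, 180.3 and 148 in S-V 1 to 5. Its levels were 162, 196, 183, 138 and 189.6 CPM in D+V 1 to 5 and 139, 153, 148, 129.5 and 155 in D-V 1 to 5. The 5 D-V libraries lay low, at 129.5 to 155, and D+V 4 fell among them while the other 4 D+V libraries lay above all of D-V. Its log2 difference was 0.08 (SE 0.10, adjusted p = 0.71) in D+V against Control. Aldh1l1, a folate enzyme used as a general astrocyte marker, had 3 high D+V libraries. In Control 1 to 3 Aldh1l1 stood at 56.7, 58.0 and 54.9 CPM, and in D+V 1 to 5 at 49.3, 72.2, 65.7, 47.7 and 71.3. It stood at 52.4, 54.3, 56.3, 62.1 and 43.4 CPM in S-V 1 to 5 and at 48.3, 49.3, 55.7, 49.0 and 47.2 in D-V 1 to 5. D+V 2, 3 and 5 were the 3 highest of the 18 libraries, while D+V 1 and 4 lay with D-V, and the log2 difference from Control was 0.11 (SE 0.13, adjusted p = 0.682).

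Aldoc is the astrocyte form of the glycolytic enzyme aldolase. For Aldoc, Control 1 to 3 gave 1053, 1018 and 847 CPM and S-V 1 to 5 gave 1011, 971, 889.8, 1164 and 879. D+V 1 to 5 gave 949, 1066, 1082, 801 and 1117 CPM and D-V 1 to 5 gave 915, 1002, 888, 871 and 948. All groups overlapped (D+V against Control, log2 0.04, SE 0.11, adjusted p = 0.874). Ppp1r3c, which directs a phosphatase to glycogen, ran from 49.0 to 82.3 CPM, the lipid phosphatase Plpp3 from 211 to 307 and the metallothionein Mt3 from 85.5 to 148. For Mt3 the lowest library was D+V 4 and the highest S-V 1.

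The receptor and transcription factor genes were Fgfr3, Ntsr2 and Sox9, and 0 of 3 were called. Sox9 was at 31.3, 24.7 and 25.3 CPM in Control 1 to 3 and at 23.7, 25.8, 23.6, 34.3 and 24.6 in S-V 1 to 5. Its levels were 28.1, 42.5, 35.8, 23.8 and 30.3 CPM in D+V 1 to 5 and 26.6, 31.0, 34.5, 28.1 and 31.3 in D-V 1 to 5. D+V 2 was the highest library, and the groups overlapped (D+V against Control, log2 0.24, SE 0.16, adjusted p = 0.437). The growth factor receptor Fgfr3 ran from 79.9 to 119.9 CPM and the neurotensin receptor Ntsr2 from 80.5 to 106.

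The filament and calcium-binding genes include the usual marks of reactive astrocytes, and 0 of 3 were called. In Control 1 to 3 Gfap stood at 489.6, 464 and 467 CPM, and in D+V 1 to 5 at 490.3, 699.6, 583, 380.3 and 526. It stood at 537, 426, 524, 522 and 458 CPM in S-V 1 to 5 and at 437, 401, 418, 465 and 453 in D-V 1 to 5. D+V held both the highest library of the 18, D+V 2, and the lowest, D+V 4, and the log2 difference from Control was 0.18 (SE 0.13, adjusted p = 0.492), or 0.063 without D+V 2 and 0.28 without D+V 4. Vim, a filament protein also made by vessels and ependyma, was lower on average in D+V than in Control, without passing the test. For Vim, Control 1 to 3 gave 61.4, 68.7 and 42.4 CPM and S-V 1 to 5 gave 52.2, 51.4, 56.9, 60.4 and 50.9. D+V 1 to 5 gave 56.3, 53.2, 43.2, 42.2 and 38.3 CPM and D-V 1 to 5 gave 56.9, 42.3, 60.8, 71.2 and 47.1. D+V 5 was the lowest of the 18 libraries, but Control 3 lay among the D+V libraries, and the log2 difference was -0.30 (SE 0.16, adjusted p = 0.336), or -0.15 without Control 2 and -0.48 without Control 3.

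S100b, a calcium-binding protein that oligodendrocytes also make, did not separate D+V from Control. S100b was at 106, 88.6 and 84.5 CPM in Control 1 to 3 and at 113, 97.8, 96.2, 109 and 99.5 in S-V 1 to 5. Its levels were 114, 104, 94.3, 78.7 and 89.9 CPM in D+V 1 to 5 and 92.2, 90.9, 94.5, 90.3 and 90.8 in D-V 1 to 5. In D+V against Control the log2 difference was 0.05 (SE 0.10, adjusted p = 0.841). Each S-V library lay above each D-V library, and the 5 D-V libraries differed by little, from 90.3 to 94.5.

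Of the 7 secreted and surface genes, 0 were called, and the matrix proteoglycan Bcan and the serine protease Htra1 were lower in the rotated groups on average. In Control 1 to 3 Bcan stood at 223, 196 and 197 CPM, and in D+V 1 to 5 at 176, 175, 182, 169.7 and 202. It stood at 184, 164, 188, 172 and 172 CPM in S-V 1 to 5 and at 175, 186, 182, 195 and 205 in D-V 1 to 5. The S-V libraries lay below all Control libraries, and in D+V 4 of 5 did, with D+V 5 above 2 of the 3 Controls. The log2 difference was -0.22 (SE 0.07, adjusted p = 0.194) in S-V against Control and -0.18 (SE 0.07, adjusted p = 0.175) in D+V against Control. With GC and length trends removed these differences of Bcan were -0.07 and -0.025. Htra1 ran from 183 to 198 CPM in Control and 153 to 179 in D+V, without overlap (log2 -0.15, SE 0.07, adjusted p = 0.284), but with GC and length trends removed the difference was 0.0074.

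Clu and Apoe, the 2 abundant apolipoproteins of the list, overlapped between all groups. For Clu, Control 1 to 3 gave 1225, 1094 and 1027 CPM and S-V 1 to 5 gave 1111, 1049, 1026, 1242 and 963. D+V 1 to 5 gave 1145, 1330.5, 1105, 900.2 and 1108 CPM and D-V 1 to 5 gave 997, 1016, 1251, 1154 and 1101. The log2 difference in D+V against Control was 0.0033 (SE 0.11, adjusted p = 0.994), and its sign changed with several settings. Apoe was at 2429.9, 2215 and 1891 CPM in Control 1 to 3 and at 2097, 1974, 2030.5, 2260.0 and 1920.3 in S-V 1 to 5. Its levels were 2299, 2089, 1867, 1637 and 2055 CPM in D+V 1 to 5 and 1978, 2119.7, 2242, 2383 and 2091 in D-V 1 to 5. Its difference was -0.13 (SE 0.10, adjusted p = 0.505), and 0.05 with GC and length trends removed. The angiotensin precursor Agt ran from 19.1 to 37.5 CPM over the 18 libraries, the clotting receptor F3 from 35.6 to 48.2 and Sparcl1 from 1398 to 1713.

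**Figure D2:**
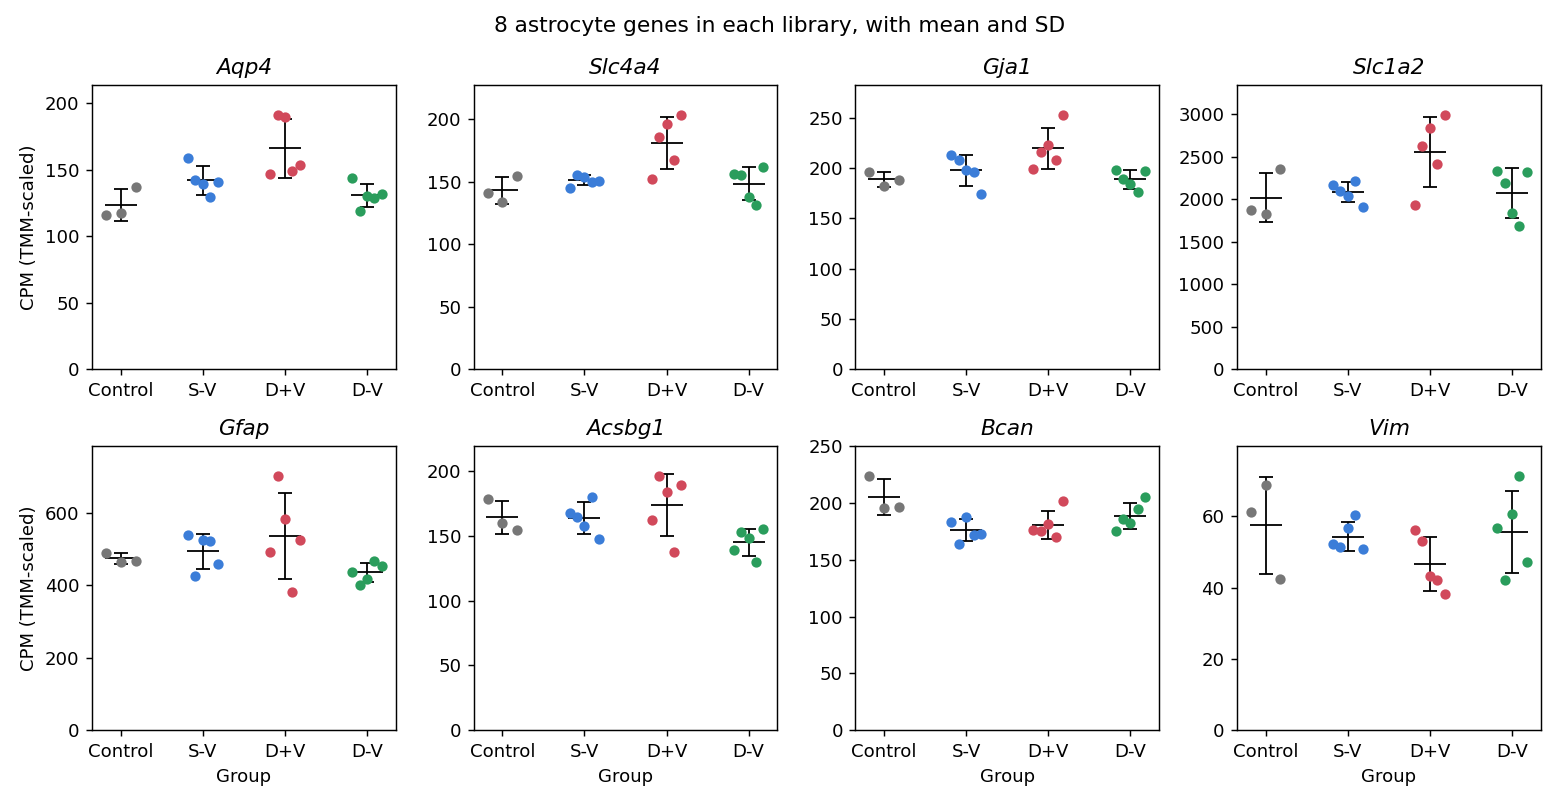
CPM (vertical axes, from 0) of 8 astrocyte genes by group, a point per library, with the mean as the long bar and the SD as whiskers (n = 3 in Control, 5 in the other groups). The D+V points of Aqp4 and Gja1 lie above all Control and D-V points, while those of Gfap spread from 380.3 to 699.6 CPM.

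Read over all 32 genes, D+V against Control had 22 positive and 10 negative log2 differences, with a median of 0.07, against -0.0023 over all genes tested. As the list was chosen with earlier results of these data known, these signs describe the list only. An unadjusted p under 0.05 was reached by 6 of 32 (18.75%), and by 17.9% of all genes, so the share of the astrocyte genes was near that of all genes tested. The 4 positive ones were Aqp4, Slc4a4, Gja1 and Slc1a2, and the 2 negative ones Atp1b2 and Bcan. Groups did not overlap for 3 of 32 genes, with Aqp4 and Gja1 higher and Htra1 lower, while 7.63% of all genes did not overlap (3.67% higher, 3.96% lower). Of the 19 genes that mark mainly astrocytes 15 were positive, and of the 13 shared with other cells 7 were. The median over the 32 was 0.03 without D+V 2 and -0.02 without the 6 libraries richest in choroid plexus markers, where 13 were positive and 19 negative.

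Markers of other cells and regions also stood apart between D+V and Control, and their part in these differences was not tested. All 12 choroid plexus markers were positive in D+V against Control, with 0 called, but the median summed level was 318 CPM in D+V and 627 in Control, and D+V 2 and D+V 5 were the 2 D+V libraries with a score above 0. Of 12 endothelial and pericyte markers 9 were negative and 2 were called lower, with summed levels of 397.6 to 472 CPM in Control and 330.2 to 421 in D+V. All 6 red blood cell genes were positive, each with an unadjusted p under 0.05, with 479.5 to 640.3 CPM in Control and 385.8 to 3208 in D+V. Of 6 oligodendrocyte precursor markers 4 were negative, each with an unadjusted p under 0.05, 2 were positive, and 0 were called. Negative were also 8 of 11 microglial and 7 of 11 oligodendrocyte markers, while 8 of 12 neuronal markers were positive. Of 11 thalamus and habenula markers tested 10 were negative, with 123 to 222 CPM in Control and 105 to 167 in D+V. In this last list Gbx2 was at 0 in 3 libraries and Pou4f1, not tested, at 0 in 5, and no endothelial or red blood cell marker was at 0 in any library.

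Most astrocyte genes had lower means with vision blocked than with vision free under the same rotation. In D-V against D+V 24 of 32 log2 differences were negative, with a median of -0.08, against 0.0089 over all genes, and 17 of the 19 mainly astrocyte genes were negative. None was called by edgeR. An unadjusted p under 0.05 was reached by 8 of 32 (25%), all lower in D-V, and by 13.7% of all genes. This comparison shares the D+V libraries with D+V against Control, so its direction is not separate evidence. The median was -0.0033, with 16 genes in each direction, without the 6 libraries richest in choroid plexus markers, of which D+V 2, D+V 5, D-V 3 and D-V 4 enter here. Markers of other cells also differed on average, and their part was not tested. Lower in D-V, as most astrocyte genes were, stood 10 of 11 microglial, 6 of 6 red blood cell, 9 of 11 thalamus and habenula and 7 of 11 oligodendrocyte markers. Higher stood 11 of 12 choroid plexus, 11 of 12 endothelial and pericyte, 8 of 8 meningeal, 7 of 8 ependymal and 5 of 6 oligodendrocyte precursor markers, and neuronal markers were 6 to 6. Endothelial sums were 405.8 to 461.3 CPM in D-V, and red blood cell sums 917.3 to 1749 CPM.

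The 8 genes span several roles. Aqp4 had the smallest p, with a log2 difference of -0.34 (SE 0.08, adjusted p = 0.0901) and no overlap of the libraries. Slc4a4 stood at -0.28 (SE 0.08, adjusted p = 0.114) and Gja1, again without overlap, at -0.22 (SE 0.07, adjusted p = 0.155). Libraries did not overlap for 2 of 32 genes, both lower in D-V, and for 1.58% of all genes (0.942% lower). Acsbg1 stood at -0.26 (SE 0.08, adjusted p = 0.191). Slc1a2 was at -0.30 (SE 0.11, adjusted p = 0.234) and Aldh1l1 at -0.29 (SE 0.11, adjusted p = 0.252).

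Ppp1r3c ran from 49.0 to 59.8 CPM in D-V and 50.6 to 82.3 in D+V, with a log2 difference of -0.33 (SE 0.12, adjusted p = 0.240). Gfap stood at -0.30 (SE 0.11, adjusted p = 0.242), and at -0.19 without D+V 2, its highest library. Without D+V 1 edgeR called 6 of the 32 in this comparison (Aldh1l1, Aqp4, Gja1, Ppp1r3c, Slc1a2 and Slc4a4) among 8.38% of all genes, and without D+V 4 it called Acsbg1 among 0.477%.

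**Figure D3:**
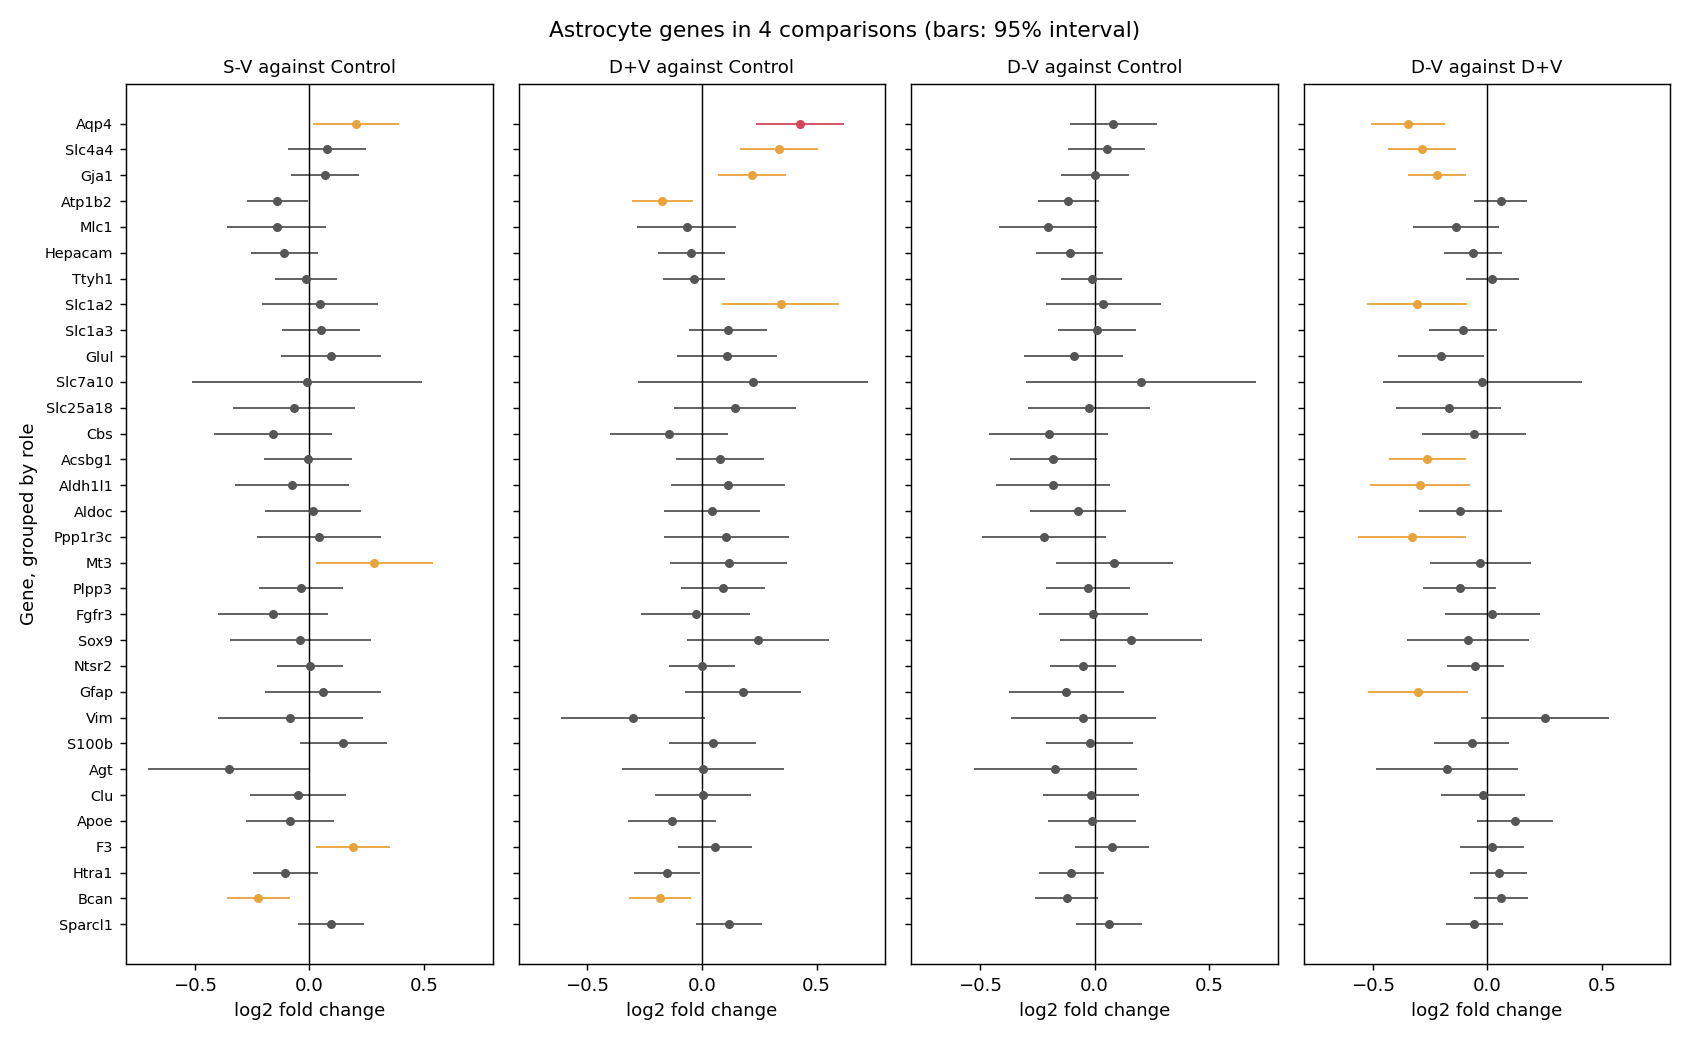
Log2 fold changes of the 32 astrocyte genes (rows, by role) in 4 comparisons (panels), with bars for the 95% interval. Red marks the gene with an adjusted p under 0.05 (Aqp4 in D+V against Control), orange an unadjusted p under 0.05, and grey the rest. In the panel of D-V against D+V 24 of 32 points lie left of 0 and every orange point does.

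The list was balanced around 0 after turning a single way with the eyes covered. In S-V against Control 14 log2 differences were positive and 18 negative, with a median of -0.01 and 0 called (0% of all genes). The median was 0.033 without Control 1, -0.054 without Control 3 and 0.011 with GC and length trends removed. Unadjusted p-values under 0.05 were reached by 4 of 32 (12.5%), against 13.7% of all genes. Positive were Aqp4 (log2 0.20, adjusted p = 0.364), Mt3 (0.28, adjusted p = 0.344) and F3 (0.19, adjusted p = 0.317), and Bcan was negative as given above. Libraries did not overlap for Bcan alone, lower in S-V, and for 12.4% of all genes (5.74% lower).

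D-V against Control had 10 positive and 22 negative differences, a median of -0.03 (0.0072 without Control 1 and -0.098 without Control 3), 0 called and 0 of 32 with an unadjusted p under 0.05, against 6.2% of all genes. Over the 3 rotated groups together against Control, 15 were positive and 17 negative (median -0.01, or 0.05 without Control 1 and -0.043 without Control 3), and an unadjusted p under 0.05 was reached by 3 of 32 against 13.1% of all genes. These were Aqp4 (log2 0.24, adjusted p = 0.236), Atp1b2 (-0.14, adjusted p = 0.301) and Bcan (-0.18, adjusted p = 0.223). All these comparisons share the 3 Control libraries.

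The other comparisons between rotated groups gave 0 calls. D+V against S-V had 23 positive differences and a median of 0.06, and 5 of 32 genes had an unadjusted p under 0.05, all higher in D+V, against 13% of all genes. These were Slc4a4 (log2 0.26, adjusted p = 0.210), Aqp4 (0.22, adjusted p = 0.287), Slc1a2 (0.30, adjusted p = 0.289), Gja1 (0.15, adjusted p = 0.346) and Agt (0.35, adjusted p = 0.362). The median was 0.034 without D+V 5 and 0.11 without D+V 4. D+V against S-V also shares the D+V libraries with D+V against Control, so its direction is not separate evidence. In the same comparison 12 of 12 endothelial and pericyte, 10 of 11 oligodendrocyte and 9 of 11 microglial markers were negative, 6 of 6 red blood cell and 11 of 12 neuronal markers were positive, and their part was not tested. In D-V against S-V, which differ in the direction of rotation with vision blocked in both, 14 were positive and 18 negative (median -0.03, or 0.0043 without S-V 4 and -0.055 without D-V 5). Ppp1r3c (log2 -0.26, adjusted p = 0.757) was the only 1 of the 32 with an unadjusted p under 0.05, against 6.44% of all genes. S100b was lower in D-V without overlap (log2 -0.17, adjusted p = 0.767), against 0.894% of all genes.

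The spread within a group was widest in D+V, for the astrocyte genes as for all genes tested. The median SD of log2 CPM over the 32 genes was 0.20 for D+V, 0.12 for Control, 0.11 for S-V and 0.10 for D-V, and over all genes it was 0.20, 0.15, 0.14 and 0.15 in the same order. A score per library, the mean log2 CPM of the 32 genes centred on its mean over libraries, was 0.16 for D+V 2, 0.16 for D+V 5 and 0.12 for D+V 3, but -0.02 for D+V 1 and -0.16 for D+V 4. S-V 4 scored 0.12 and S-V 5 -0.14, Control ran from -0.07 to 0.09 and D-V from -0.07 to 0.01. Counted by genes, 26 of 32 were above their median over the 18 libraries for D+V 5, 28 for S-V 4, 6 for D+V 4 and 4 for S-V 5. D+V 2 and D+V 5, high in this score, are also among the 6 libraries richest in choroid plexus markers, as is S-V 4, and D+V 3 had the lowest choroid plexus score of the 18. The part of choroid plexus tissue in the score was not tested. The summed level of the 32 genes was 13253 to 14299 CPM in Control, 12513 to 15009 in S-V, 12726 to 15554 in D+V and 12836 to 13970 in D-V, so the group ranges overlapped.

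**Figure D4:**
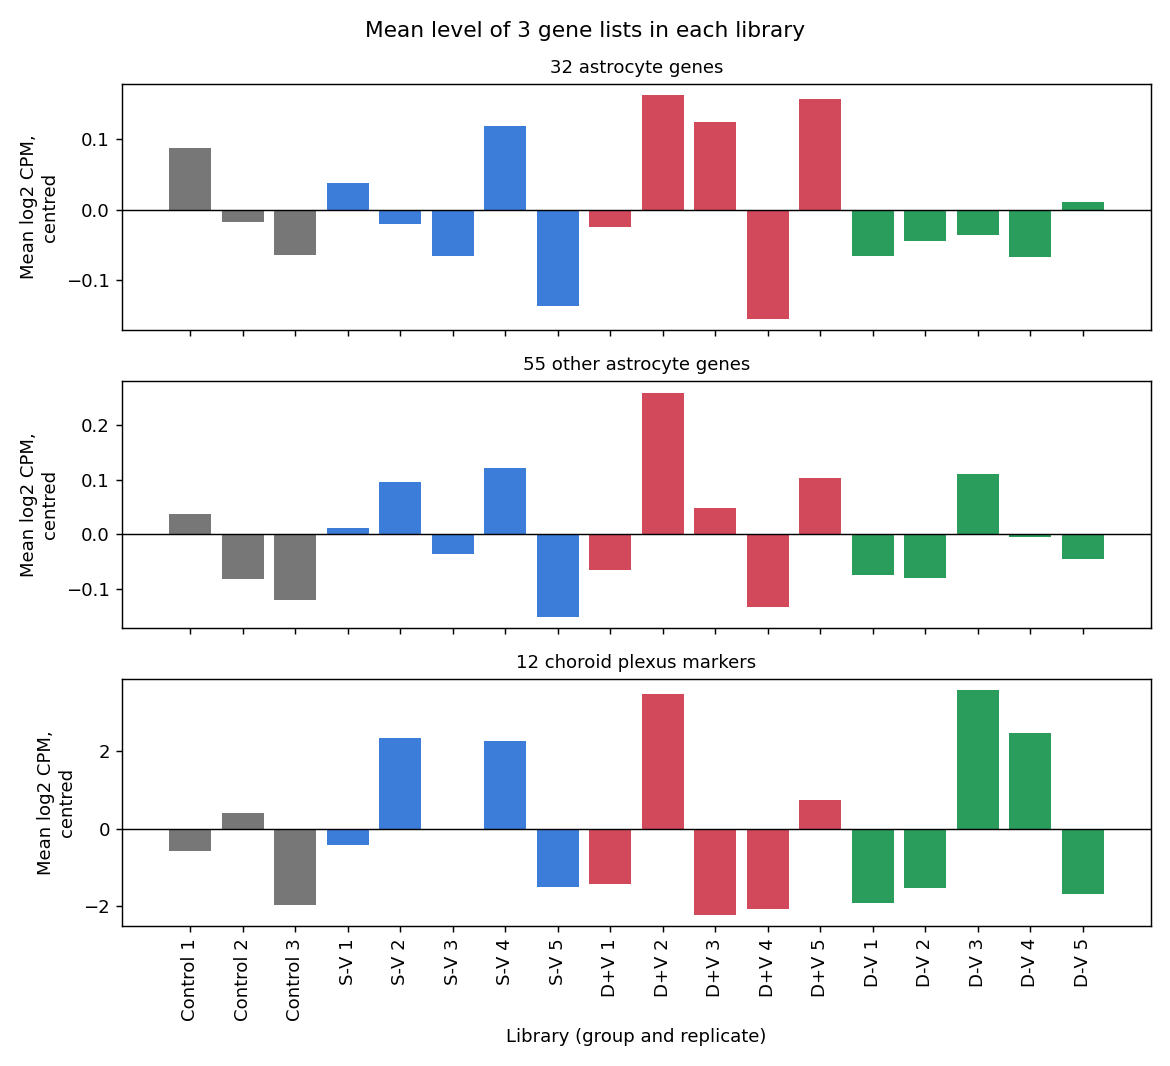
Mean log2 CPM per library, centred on the mean of the 18 libraries, for the 32 astrocyte genes (top), 55 other astrocyte genes (middle) and 12 choroid plexus markers (bottom), a bar per library coloured by group. Vertical scales differ between panels. D+V 2 and D+V 5 are the highest libraries in the top panel, followed by D+V 3, which is the lowest in the bottom panel.

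The base composition of the transcripts moved with these differences. The median GC content of the 32 genes was 52.2%, against 50.3% for all genes tested, and Aqp4 (41.4%), Gja1 (45.1%), Slc1a2 (45.3%) and Slc4a4 (45.9%) were the 4 poorest in GC, while Bcan was at 60.7%. Of the 13 genes at or below the median GC of all genes 12 were positive in D+V against Control, and of the 19 above it 10 were. Across the 32 genes, which are not independent replicates and share the same libraries, Spearman's rho between the log2 difference and GC content was -0.47. With GC and length trends removed in each library, the differences were 0.15 for Slc4a4, 0.14 for Gja1, 0.11 for Slc1a2, 0.31 for Gfap (unadjusted p = 0.0182, adjusted p = 0.629) and 0.21 for Acsbg1 in D+V against Control. Mlc1, Hepacam, Fgfr3, Apoe and Htra1 turned from negative to positive values. In that fit 27 of 32 were positive with a median of 0.13, and 0 of 32 and 0 of all genes were called. The smallest edgeR p of the 32 there belonged to Mt3 (log2 0.20, unadjusted p = 0.00796, adjusted p = 0.543). Gfap, Aqp4, Slc4a4, Acsbg1 and Ntsr2 also had an unadjusted p under 0.05. In D-V against D+V 28 of 32 were negative after the removal, with a median of -0.14, and the smallest p belonged to Acsbg1 (log2 -0.34), Gfap (-0.39) and Aldh1l1 (-0.32), each at an adjusted p of 0.383.

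**Figure D5:**
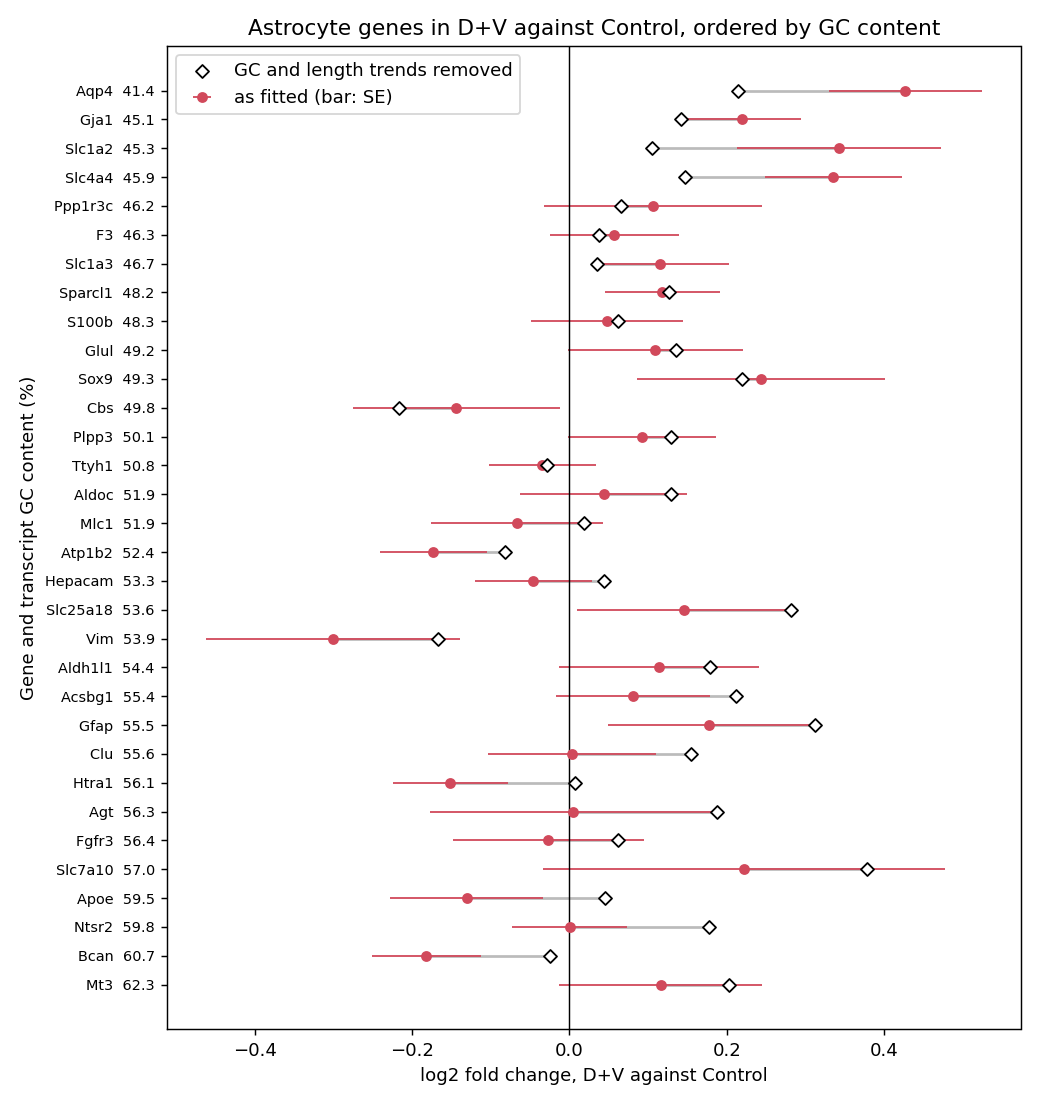
Log2 difference of D+V from Control for each of the 32 astrocyte genes, ordered from low to high transcript GC content (printed beside the name). Red points with SE bars are the values as fitted and open diamonds those with GC and length trends removed. The diamonds of Aqp4, Slc1a2 and Slc4a4, at the top, lie closer to 0 than their red points, and most diamonds in the lower part lie further right.

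A second list of 55 astrocyte genes that are not among the 32 was also chosen with earlier results of these data known. It gave 0 calls in D+V against Control, with 38 positive and a median of 0.07. An unadjusted p under 0.05 was reached by 8 of the 55 (14.5%), all higher, which is below the 17.9% of all genes. The smallest p belonged to Dio2, which activates thyroid hormone (log2 0.57, SE 0.14, adjusted p = 0.0539), and the endothelin receptor Ednrb (0.29, SE 0.09, adjusted p = 0.0966). In D-V against D+V 38 of the 55 were negative with a median of -0.08, led by the glutamate receptor Grm3 (log2 -0.32, SE 0.08, adjusted p = 0.0987) and Dio2 (-0.46, SE 0.12, adjusted p = 0.0998). Of 37 genes of reactive astrocytes 33 were tested (Cxcl10, Timp1, Slc10a6 and Tgm1 had too few counts). In D+V against Control 0 of 33 were called, 19 were negative, and the median was -0.12. An unadjusted p under 0.05 was reached by 4 of the 33 (12.1%), all lower, which is below the 17.9% of all genes. The smallest p belonged to the lipid receptor S1pr3 (log2 -0.41, SE 0.13, adjusted p = 0.119) and the antigen-presenting molecule H2-D1 (-0.41, SE 0.14, adjusted p = 0.124), both lower.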

How the data were processed

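The deposited table holds estimated counts per gene for 18 hippocampus libraries, per the file headers and values, of which 7.35% were not whole. The submitters' processing notes name StringTie 1.3.1, Bowtie2 2.2.8, DESeq2 and HISAT2 without their roles. The genome build, annotation and strand setting are not stated there or in the labels. Reads of overlapping genes could therefore not be separated, and no coordinates of the table are printed. Per the labels, RNA was selected on oligo(dT) beads. Columns were matched to samples by title, and 0 columns were left unmatched. Symbols were found for 21973 of 22063 identifiers.

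Counts were rounded, filtered with filterByExpr (14763 genes kept, 99.97% of counts), scaled by TMM and tested by quasi-likelihood (glmQLFTest, edgeR 4.0.16, R 4.3.3), with 18 libraries in 1 fit of 4 group means (biological variation 15.4%), after a check on simulated data. Calls were made at adjusted p-values (Benjamini-Hochberg, over all genes tested) below 0.05, and 7 comparisons were made. Log2 CPM used a prior count of 2. Intervals are 1.96 SE. GC content and length came from the longest coding transcript in GENCODE M21, available for 32 of 32 astrocyte genes and 99.9% of genes tested, and their trends were removed with splines of 4 degrees of freedom. Alternatives were other scalings, filters and fits, DESeq2 1.42.0, voom with quality weights in limma 3.58.1, a replicate block, a choroid plexus covariate and leaving out libraries. The 32 genes, the other lists and the alternatives were chosen with earlier results of these data known. Values in every sample are printed for genes called, genes with an unadjusted p under 0.01 in any comparison, and 13 anchor genes (Aqp4, Gfap, Aldh1l1, Slc1a2, Slc1a3, Glul, Gja1, S100b, Sox9, Aldoc, Clu, Apoe and Vim). Of the lists of other and reactive astrocyte genes, the 2 smallest p in a direction may be named. Promoter windows came from RefSeq (GRCm38.p6). Libraries of a group differed beyond sampling noise (chi-square per gene 5.73 to 59.5), and PCR copies were not marked, so counts are not independent molecules.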

Additional observations from a re-analysis of the deposited data

Results flagged for a closer look

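Among 99 groups of 5 libraries examined, 6 (6.06%) held a library far from the other 4 by Dixon's criterion at 95%, and chance alone marks about 1 in 20. Ttyh1 in D+V 5 was at 475 CPM, with the next library at 423. Htra1 in D+V 2 was at 153 CPM, with the next at 172, the only low one of the 6. Sox9 in S-V 4 was at 34.3 CPM, with the next at 25.8. In D-V, Aldh1l1 was at 55.7 CPM in D-V 3 (next 49.3), F3 at 43.3 in D-V 3 (next 40.8) and Ntsr2 at 97.5 in D-V 5 (next 92.7). D-V 3, D+V 2, D+V 5 and S-V 4 are among the 6 libraries richest in choroid plexus markers, and D-V 5 is not.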

How the results depend on the processing

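Counts of the 32 genes called in D+V against Control (1 as reported, of 134 genes) were 2 with the choroid plexus covariate (Aqp4 and Slc4a4, of 338 genes), 2 with DESeq2 (of 731), 6 with voom (of 1882) and 0 with GC and length trends removed, with that removal and the replicate block, without a filter (of 60), in a fit of only the groups compared, with upper quartile scaling (of 124), with the replicate block and without the 6 libraries richest in choroid plexus markers. It was 0 to 5 when each library was left out: 0 without Control 1, Control 2 or any of D+V 2 to D+V 5, 2 without Control 3 (of 375 genes) and 5 without D+V 1 (of 1288). In D-V against D+V the count was 0 as reported, 2 with DESeq2 (of 261), 6 with voom (of 819), and 0 to 6 over the libraries left out, with 1 without D+V 4 (of 70) and 6 without D+V 1 (of 1230). In D+V against S-V it was 0 as reported, 4 with voom (of 1943) and 0 to 2 over the libraries left out, with 2 without D+V 1 (of 1455). The cause was not tested.

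Replicate numbers are shared between groups. Deviations of same-numbered libraries from their group means correlated at -0.45 to 0.34 (median 0.0075, 24 pairs). Those of differently numbered libraries correlated at -0.40 to 0.65 (median 0.0075, 96 pairs). Same-numbered libraries were thus no closer at the median, which does not show whether they share a batch. With the replicate block Aqp4 stood at 0.47 (adjusted p = 0.0766), and 5 genes were called in all. It was at an adjusted p of 0.0517 without a filter, 0.369 with only the groups compared and 0.0560 with upper quartile scaling.

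Signs changed for some genes in D+V against Control. Without the 6 libraries richest in choroid plexus markers Acsbg1 was -0.017, Aldh1l1 -0.052, Aldoc -0.031, Clu -0.074 and Glul -0.018. With upper quartile scaling Aldoc was -0.0038 and Clu -0.042. Apoe was 0.045 with GC and length trends removed and 0.051 with the block added, and Htra1 0.0074 with the trends removed, from -0.13 and -0.15 as reported. Clu was -0.024 with the choroid plexus covariate and -0.0098 with voom. Over the libraries left out, Aldoc ran from -0.046 to 0.11, Clu from -0.067 to 0.076 and S100b from -0.022 to 0.15. Medians over the list moved by less than the pooled SD of the library scores (0.095), but each median as reported is itself smaller than that. Medians could thus change sign within it. Over the libraries left out they ran from 0.03 to 0.13 in D+V against Control, -0.14 to -0.062 in D-V against D+V and 0.034 to 0.11 in D+V against S-V, and changed sign in the other 4 comparisons: -0.098 to 0.0072 in D-V against Control, -0.054 to 0.033 in S-V against Control, -0.055 to 0.0043 in D-V against S-V and -0.043 to 0.05 for the 3 rotated groups. With GC and length trends removed the medians of S-V and of the 3 rotated groups against Control were 0.011 and 0.026. Without the 6 libraries richest in choroid plexus markers the median of D+V against Control also changed sign. The lowest level of any of the 32 genes was 19.1 CPM, for Agt in S-V 5, a library of 17.84 M counts.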
